A study of Chlorocebus sabaeus with 32 samples.

Results

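The 10 core genes of the circadian clock, ARNTL, CLOCK, PER1, PER2, PER3, CRY1, CRY2, NR1D1, NR1D2 and DBP, were followed across hippocampal RNA-seq libraries of young vervet monkeys (Chlorocebus sabaeus). They were picked by gene symbol from a table of 33994 genes, with no cutoff on a measured value but with earlier results of these data known. All 10 were among the 19959 genes that passed the filter on low counts. The study concerns how the transcriptome of the vervet hippocampus changes during development, and it deposited 32 libraries. Every library came from hippocampus, carried the age class of under 1 year and had no treatment recorded. The titles begin with 1 of 3 strings of 4 digits, after which the groups are called P2011 (2 libraries), P2010 (16) and P2009 (14) here, and the labels do not say what these digits stand for. Each title holds its own identifier, so each library was taken as 1 animal, but nothing else states that the samples are independent, and p-values measure only the spread between these libraries. The labels give no hour of tissue collection, so no value below can be placed on a day-night cycle.

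The circadian clock is a feedback loop of transcription that runs in nearly every cell of a mammal, the hippocampus included. The proteins ARNTL (also named BMAL1) and CLOCK pair up on E-box elements and drive the PER and CRY genes, the nuclear receptor genes NR1D1 and NR1D2 and the output gene DBP. PER and CRY proteins then return to block ARNTL and CLOCK, and the NR1D receptors repress the ARNTL gene itself, so in a tissue that keeps time ARNTL transcripts peak when those of NR1D1 and DBP are low.

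Each library held between 9347635 and 19673621 reads in genes (median 16201657). Levels are read counts relative to library size (CPM), scaled by the trimmed mean of M-values (TMM) and not divided by gene length, so they compare libraries within 1 gene and not genes with each other. Excitatory hippocampal neuron markers were present in every library, with PROX1, a granule cell transcription factor, between 20.2 and 185.5 CPM. Their levels varied widely. The summed level of the 10 markers was 2031 to 4650 CPM, and C1QL2 fell to 4.31 and POU3F1 to 2.68 CPM in the library where each was lowest. A pair of libraries stood apart. Replicate 1 of P2009 was the shallowest library and had 67.1% of its reads in no gene feature, against 51.3% to 62.4% in the 30 libraries left once both were set aside. Replicate 2 of P2010 had the highest score of striatal and thalamic markers, 3.14 against a range of -0.512 to 1.47 in the others, with a summed level of these markers of 654 CPM against a median of 121.9 CPM over all libraries. Results below are given with and without these 2 libraries for many, but not all, of the calls that they decide. The 2 libraries were singled out after the data had been seen.

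All 10 genes were measured well above the counting floor, and the lowest count of any of them in any library was 158 reads. ARNTL, the activator that pairs with CLOCK, had a lowest value of 29.2, a median of 37.9 and a highest value of 56.4 CPM, and averaged 38.3 ± 6.20 CPM (SD, n = 32). Its highest values were 56.4 and 52.8 CPM in replicates 15 and 2 of P2010, and its lowest was 29.2 CPM in replicate 10 of P2009. CLOCK, its partner, lay between 140.3 and 196.1 CPM around a median of 158.5 CPM, and the highest library was only 1.40 times the lowest.

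**Figure D1:**
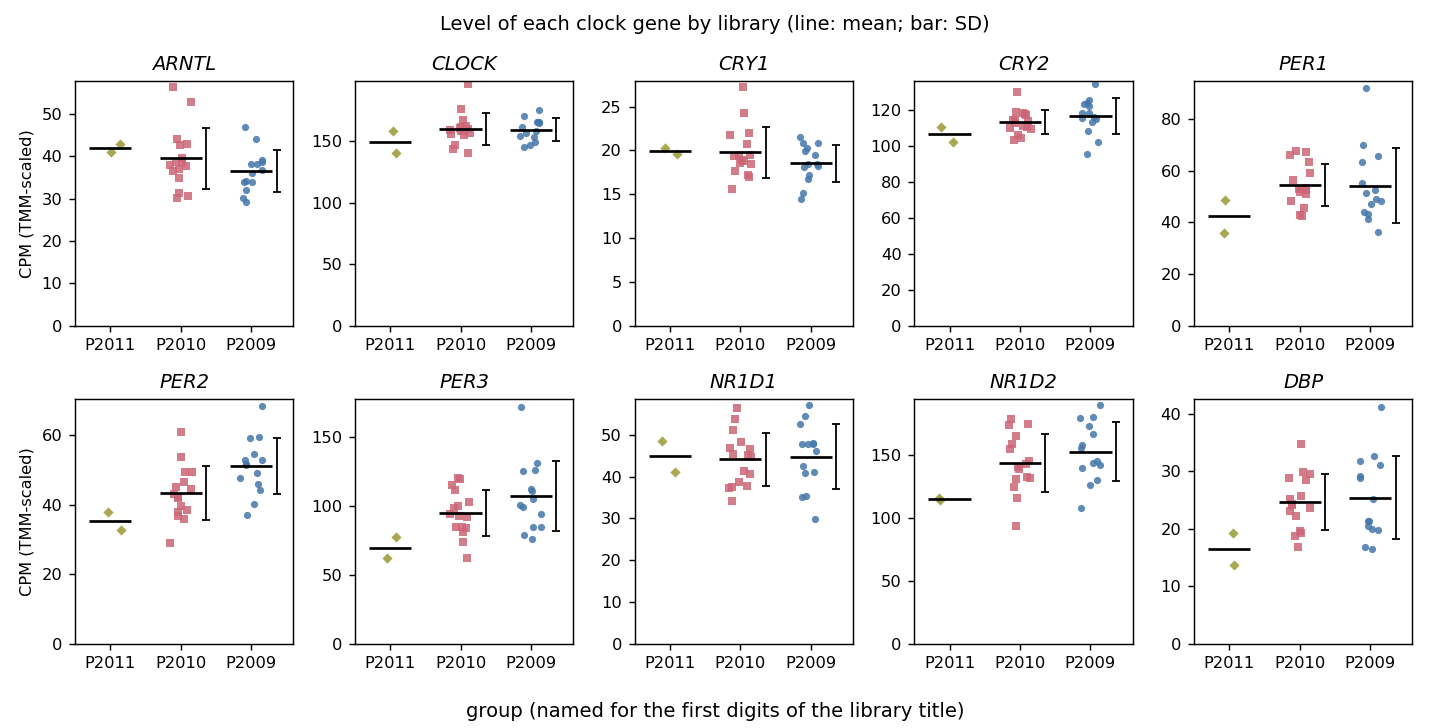
Each point is 1 library, plotted by title prefix (P2011, n = 2, P2010, n = 16, and P2009, n = 14) on the x axis against TMM-scaled CPM on a linear y axis from 0, with the mean as a line and the SD as a bar (no SD for the 2 libraries of P2011). CLOCK and CRY2 are narrow in spread, DBP and PER3 are wide, and the prefixes overlap for every gene.

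Among the repressors, the 3 PER genes varied more than the CRY genes. PER1, which is also an immediate early gene in neurons, ran from 35.8 through a median of 52.0 to 91.8 CPM, and PER2 ran from 28.9 through 45.5 to 68.3 CPM. PER3 ran from 61.9 through 96.2 to 171.6 CPM. Replicate 1 of P2009 held the highest value of all 3 PER genes, and without it and replicate 2 of P2010 the highest values were 69.7, 60.8 and 131.1 CPM for PER1, PER2 and PER3 in that order.

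CRY1, a stronger repressor than CRY2 in mouse cells, lay between 14.5 and 27.3 CPM with a median of 19.1 CPM, and again replicates 2 and 15 of P2010 were its highest libraries at 27.3 and 24.3 CPM. CRY2 lay between 95.6 and 134.1 CPM with a median of 114.1 CPM. The libraries that were highest in ARNTL were thus highest in CRY1 too, whereas CRY2 was highest in replicate 1 of P2009.

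NR1D1 (REV-ERB alpha), which represses ARNTL, ran from 29.9 through 45.3 to 57.1 CPM. Its paralog NR1D2 (REV-ERB beta) ran from 93.9 through 143.2 to 189.7 CPM, with the lowest value in replicate 15 of P2010, the library highest in ARNTL. DBP, a PAR-domain transcription factor that carries the rhythm to other genes, had the widest span of the 10, from 13.7 through 23.9 to 41.2 CPM, a 3.01-fold range.

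The biological coefficient of variation, the spread between libraries beyond counting error, was 0.235 for DBP, 0.212 for PER3, 0.196 for PER1 and 0.184 for PER2, against a median of 0.157 over the 19959 genes tested. It was 0.164 for NR1D2, 0.152 for both ARNTL and NR1D1 and 0.125 for CRY1. CRY2 at 0.0830 and CLOCK at 0.0818 were among the steadiest genes of the table, since only 5.24% and 4.61% of genes had a lower value. The clock genes thus ranged from steadier than most genes to more variable than most, and DBP exceeded 78.4% of genes.

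The 10 genes did not vary independently of each other. A first principal component of their log2 CPM held 54.1% of their variance, and on it ARNTL (loading -0.281) and CRY1 (-0.297) stood opposite to PER1, PER2, PER3, CRY2, NR1D1, NR1D2 and DBP (0.312 to 0.376), with CLOCK at 0.002. Leaving aside gaps that cut off only a few libraries at either end, no gene had a gap in its sorted values wider than 0.118 of its range. By that measure no gene split the libraries into larger clusters, but single libraries could still lie apart. PER3 reached 171.6 CPM in replicate 1 of P2009, against 131.1 CPM at most without the 2 libraries that stood apart.

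**Figure D2:**
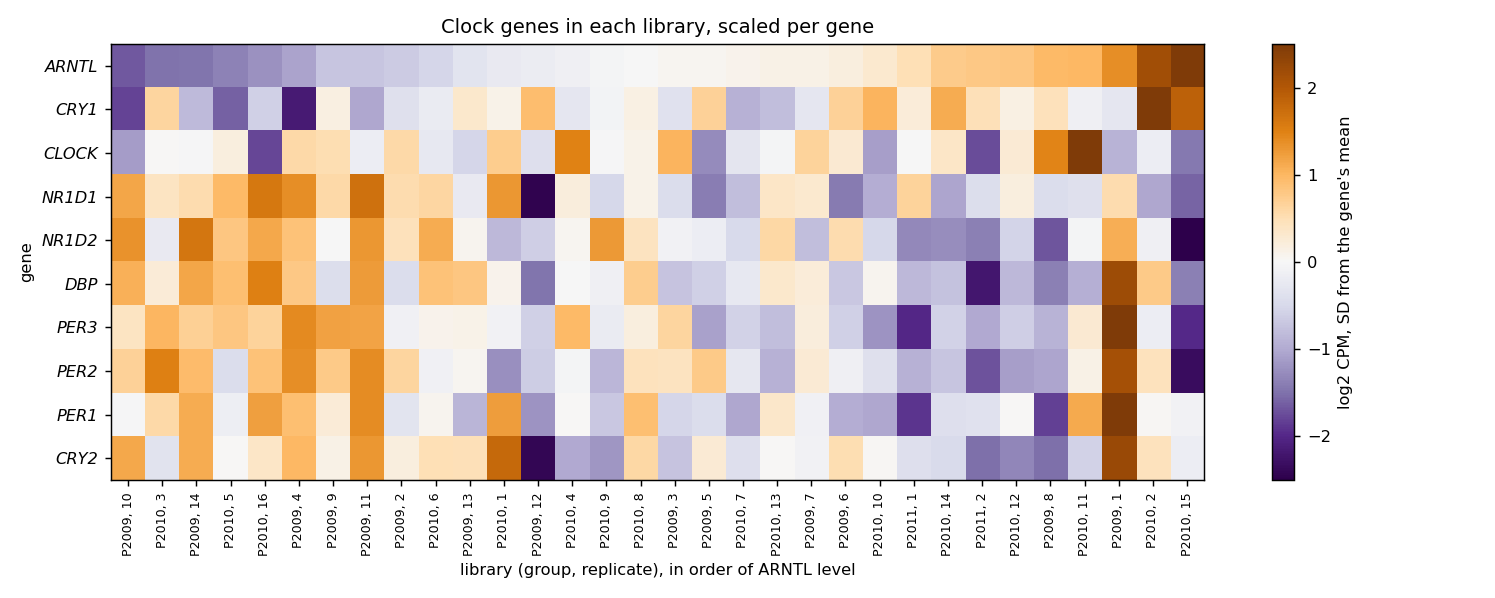
Each column is 1 of the 32 libraries in rising order of ARNTL and each row 1 gene, with colour giving log2 CPM in SD from that gene's mean. Columns at the right, high in ARNTL and CRY1, are mostly low in NR1D2, DBP, PER2 and PER3, and replicate 1 of P2009 is the column that is high in ARNTL and in the PER genes, CRY2 and DBP together.

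Whether genes moved with ARNTL was tested for every gene by a slope on ARNTL (edgeR's quasi-likelihood test, Benjamini-Hochberg adjustment, threshold 0.05), given as the log2 change per doubling of ARNTL ± SE. CRY1 rose with ARNTL, by 0.58 ± 0.11 (adjusted p = 0.00222). NR1D2 fell by 0.67 ± 0.15 (adjusted p = 0.00616) and NR1D1 fell by 0.59 ± 0.15 (adjusted p = 0.0105). Of the 9 other clock genes, 1 rose and 2 fell, where 5.28% of the 19958 genes tested rose and 4.95% fell.

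The values behind these slopes ran as follows. In replicate 15 of P2010, with ARNTL at 56.4 CPM, CRY1 was at 24.3, NR1D1 at 34.2 and NR1D2 at 93.9 CPM. In replicate 10 of P2009, with ARNTL at 29.2 CPM, CRY1 was at 15.1, NR1D1 at 52.7 and NR1D2 at 180.5 CPM. By Pearson's r of log2 CPM over the 32 libraries, ARNTL correlated with CRY1 at 0.70 (Spearman's rho 0.55), with NR1D2 at -0.63 (rho -0.60) and with NR1D1 at -0.57 (rho -0.62). These 3 again passed a two-sided permutation test of 100000 resamples adjusted over all 19958 genes (adjusted p = 0.00416, 0.00868 and 0.0168 for r, and 0.0482, 0.0316 and 0.0281 for rho), and 9.17% of genes followed ARNTL by r in either direction. With scaling by library totals NR1D1 no longer passed by r (-0.43, adjusted permutation p = 0.0611) and did by rho (0.0433).

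Leaving out replicates 15 and 2 of P2010, the 2 libraries farthest from the median of ARNTL, left slopes of the same sign: CRY1 0.44 ± 0.15 (adjusted p = 0.102), NR1D1 -0.58 ± 0.19 (0.0976) and NR1D2 -0.68 ± 0.18 (0.0503), none of them past edgeR's threshold. The correlations were then 0.53 for CRY1, -0.49 for NR1D1 and -0.58 for NR1D2, with adjusted permutation p of 0.0861, 0.115 and 0.0706. The calls, though not the directions, therefore rested on those 2 libraries together. With any 1 of the 32 libraries left out, all 3 genes passed edgeR's threshold in all 32 omissions.

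PER2, PER3 and DBP had slopes of the same sign as the NR1D genes without passing the test. Their slopes on ARNTL were -0.53 ± 0.19 for PER2 (adjusted p = 0.0713), -0.55 ± 0.23 for PER3 (0.109) and -0.60 ± 0.25 for DBP (0.114, all by edgeR), and r was -0.47, -0.46 and -0.43. By rho, PER3 (-0.59, adjusted permutation p = 0.0342) and DBP (-0.55, 0.0481) passed and PER2 (-0.50, 0.0720) did not.

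These 3 genes turned on the 2 libraries that stood apart. Without them the slopes were -0.96 ± 0.16 for PER2, -1.01 ± 0.17 for PER3 and -1.21 ± 0.20 for DBP, with adjusted p of 0.00157, 0.00163 and 0.00148 by edgeR. NR1D2 was then at -0.93 ± 0.14 (0.00102), NR1D1 at -0.67 ± 0.16 (0.0092) and CRY1 at 0.54 ± 0.12 (0.00639). Across those 30 libraries r with ARNTL was -0.78 for NR1D2, -0.75 for PER2, -0.74 for DBP and -0.74 for PER3. By absolute r these were numbers 3, 10, 14 and 16 among all 19958 genes. In all, 6 of the 9 clock genes then passed by r, where 10.5% of genes did, and the adjusted permutation p was 0.00554 for NR1D2 and PER2, 0.00587 for DBP and PER3, 0.00743 for CRY1 and 0.0121 for NR1D1. By rho 7 of the 9 passed, CRY2 being the other one, where 5.75% of genes did.

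Either library on its own also mattered. Without replicate 1 of P2009 alone, PER2 (-0.73, adjusted p = 0.00497), PER3 (-0.85, 0.00286) and DBP (-0.86, 0.00857) passed by edgeR. Without replicate 2 of P2010 alone, PER2 (-0.70, 0.0293) and DBP (-0.85, 0.0399) passed, and without replicate 5 of P2010 PER2 did (-0.60, 0.0463). Replicate 1 of P2009 had ARNTL at 46.9 CPM together with the highest values of PER1, PER2, PER3, CRY2 and DBP, and its share of reads in no feature was the highest. What that share contributes to these levels was not tested beyond the fit with it as a covariate, in which PER2 (-0.72 ± 0.17, adjusted p = 0.00792) and PER3 (-0.89 ± 0.15, 0.00125) passed and DBP did not.

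PER1, CRY2 and CLOCK did not pass over all libraries. Their slopes were -0.14 ± 0.22 for PER1 (adjusted p = 0.735), -0.10 ± 0.09 for CRY2 (0.480) and 0.02 ± 0.09 for CLOCK (0.933, all by edgeR). With scaling by library totals alone, r with ARNTL was 0.02 for PER1 and 0.05 for CRY2, against -0.15 and -0.23 with TMM, so no direction is given for either gene over all libraries. Without the 2 libraries that stood apart the slopes were -0.44 ± 0.21 for PER1 (adjusted p = 0.159), -0.21 ± 0.09 for CRY2 (0.122) and 0.07 ± 0.10 for CLOCK (0.707, all by edgeR), none of them past the threshold. CRY2 then passed by rho (-0.56, adjusted permutation p = 0.0366) but not by r (-0.46, 0.0708), and PER1 passed by neither (rho -0.41, 0.135, and r -0.37, 0.162).

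**Figure D3:**
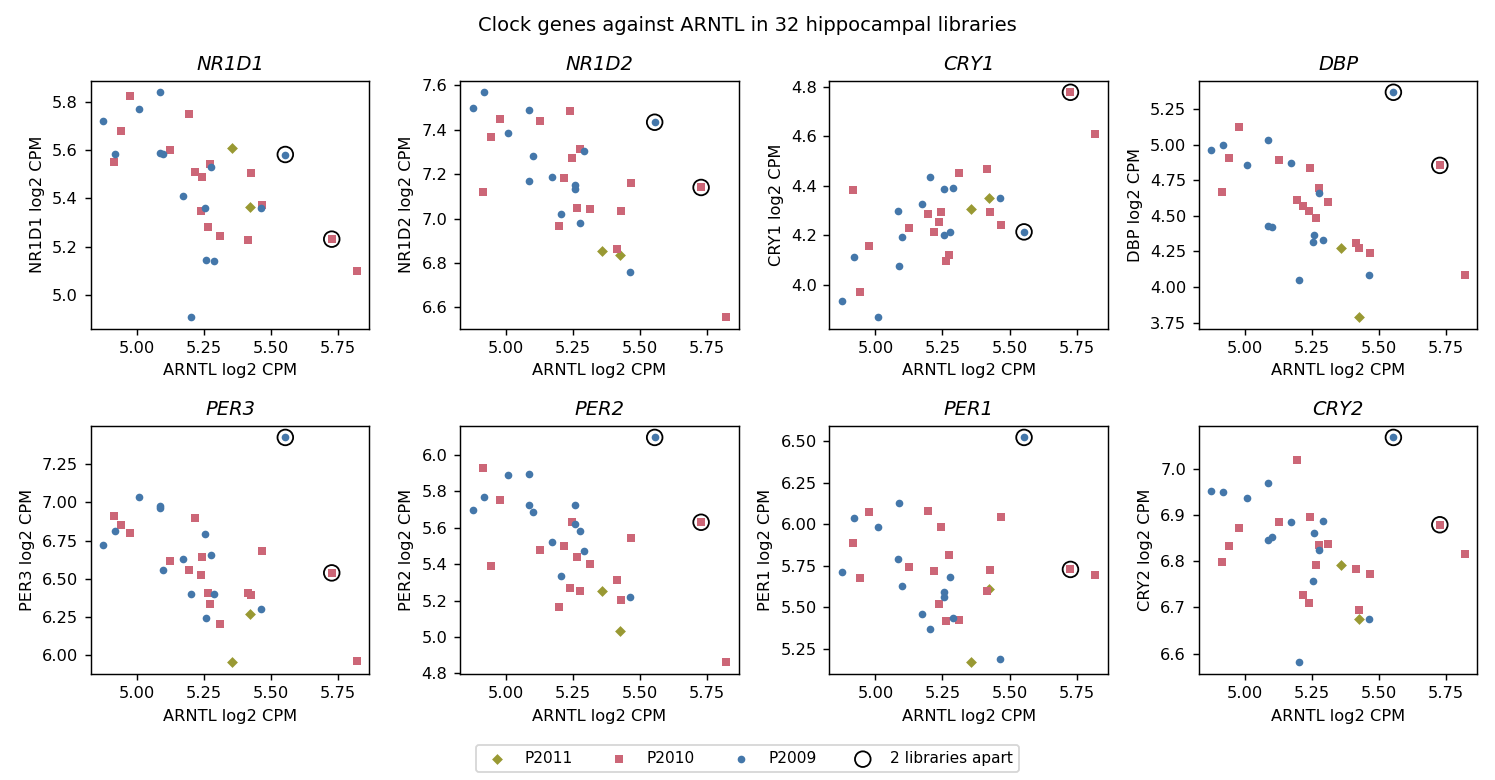
Each panel plots log2 CPM of 1 clock gene (y axis) against log2 CPM of ARNTL (x axis) in the 32 libraries, marked by title prefix, with the 2 libraries that stood apart circled. CRY1 climbs with ARNTL (r = 0.70), NR1D2 and NR1D1 decline (r = -0.63 and -0.57), and the circled libraries lie above the trend of the others for DBP, PER3 and PER2.

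The relations were compared within each title prefix. Within P2010 (n = 16), r with ARNTL was -0.78 for NR1D1, 0.72 for CRY1, -0.71 for PER3, -0.64 for NR1D2, -0.62 for DBP and -0.52 for PER2. Within P2009 (n = 14), it was -0.43 for NR1D1, 0.60 for CRY1, -0.06 for PER3, -0.55 for NR1D2, -0.21 for DBP and -0.18 for PER2. The sign of r was shared by both prefixes in these 6 genes. For PER3, however, r in P2009 was very small, and its edgeR slope there, given below, had the opposite sign. None of the 6 passed the adjusted permutation test within either prefix, the lowest adjusted p being 0.0959, for NR1D1 in P2010.

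The edgeR slopes of the called genes were close to each other in the 2 prefixes. Within P2010, CRY1 was at 0.58 ± 0.16, NR1D1 at -0.65 ± 0.15 and NR1D2 at -0.61 ± 0.19 (adjusted p = 0.0858, 0.0590 and 0.128). Within P2009 they were at 0.56 ± 0.23, -0.60 ± 0.31 and -0.62 ± 0.26 (adjusted p = 0.349, 0.393 and 0.349). With the prefix as a factor in 1 fit over all libraries, all 3 passed, at adjusted p of 0.00748 for CRY1, 0.0155 for NR1D1 and 0.0209 for NR1D2.

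The difference in slope between the prefixes was itself tested (P2010 minus P2009). Of 9 clock genes 0 were called and 0 had an unadjusted p under 0.05, where 0% of 20036 genes were called by edgeR, by DESeq2 or by limma, with 1768 genes at an unadjusted p under 0.05 by edgeR. The widest difference was for PER3, at -0.73 ± 0.43 (adjusted p = 0.609). For PER3 the slope was -0.70 ± 0.19 in P2010 and 0.04 ± 0.42 in P2009, which includes replicate 1.

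The opposite arm was then taken as the starting point. The 7 genes PER1, PER2, PER3, CRY2, NR1D1, NR1D2 and DBP were grouped by their shared sign on the first principal component of these libraries, which largely fixes the sign of r between them, so their pairs are a description. They form 21 pairs, and all 21 had a positive r over the 32 libraries, from 0.42 to 0.79 with a median of 0.62. All 21 were also positive without the 2 libraries that stood apart (0.35 to 0.77), within P2010 (0.001 to 0.75) and within P2009 (0.57 to 0.94). The median within P2010 was 0.49 and within P2009 0.76.

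DBP had other clock genes among its closest companions in the whole table. Over 32 libraries r was 0.77 with CRY2 (rho 0.76) and 0.76 with NR1D2 (rho 0.77). By absolute r they were numbers 1 and 4 of 19958 genes, both with an adjusted permutation p of 0.00868. Of the 9 clock genes, 6 passed with DBP, all positively, where 3.50% of all genes passed. Without the 2 libraries farthest from the median of DBP, r was 0.69 with CRY2 and 0.74 with NR1D2 (adjusted permutation p = 0.0499 for both). In that setting 3 of 9 clock genes passed by r, CRY2, NR1D1 and NR1D2, so PER1, PER2 and PER3 lost the call, and by rho 0 passed, where 5 had over all libraries (8 at an unadjusted permutation p under 0.05 by r). Within P2010 these were 0.49 for CRY2 and 0.74 for NR1D2, and within P2009 0.89 and 0.76.

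PER2 and PER3 ran together at r = 0.79 (rho 0.74), and at 0.75 within P2010 and 0.82 within P2009. The adjusted permutation p over all genes was 0.000265 from PER2 and 0.000411 from PER3, but both genes followed a large share of the table. With PER2, 6 of 9 clock genes passed where 31.7% of genes did, and with PER3 8 of 9 passed where 35.1% of genes did. From PER1, 6 of 9 clock genes passed where 13.8% of genes did, with PER3 closest at r = 0.72. By rho 0 of 19958 genes passed from PER1 (3721 at an unadjusted permutation p under 0.05). Without the 2 libraries that stood apart 0 clock genes passed from PER1, with 8 of 9 at an unadjusted permutation p under 0.05, and r with PER3 was 0.63 (adjusted permutation p = 0.249).

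CRY1 and NR1D1 opposed each other at r = -0.70 (rho -0.71) over all libraries, at -0.64 within P2010 and at -0.84 within P2009. From CRY1, 3 of 9 clock genes passed (ARNTL, NR1D1 and NR1D2; adjusted permutation p = 0.0222, 0.0222 and 0.0371), where 1.95% of genes passed. By rho 0 of 19958 genes passed (3204 at an unadjusted permutation p under 0.05), NR1D1 included (adjusted permutation p = 0.125). Without the 2 libraries farthest from the median of CRY1, r was 0.62 with ARNTL, -0.69 with NR1D1 and -0.70 with NR1D2, and none of the 3 passed (0.241, 0.160 and 0.166). From NR1D1, 0 clock genes passed where 0% of genes did, with 8 of the 9 clock genes and 2277 genes in all at an unadjusted permutation p under 0.05.

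A slope on NR1D1 in place of ARNTL gave several clock genes a high place, without calls. By edgeR 0 of 19958 genes passed, with 2402 at an unadjusted p under 0.05. In that order CRY1 was number 1 (-0.58 ± 0.11, adjusted p = 0.176), DBP number 3 (1.00 ± 0.22, 0.176), PER3 number 25 (0.82 ± 0.20, 0.230) and ARNTL number 28 (-0.59 ± 0.15, 0.230). PER1 was number 45, NR1D2 number 144, CRY2 number 261 and PER2 number 719, while CLOCK was number 15683.

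**Figure D4:**
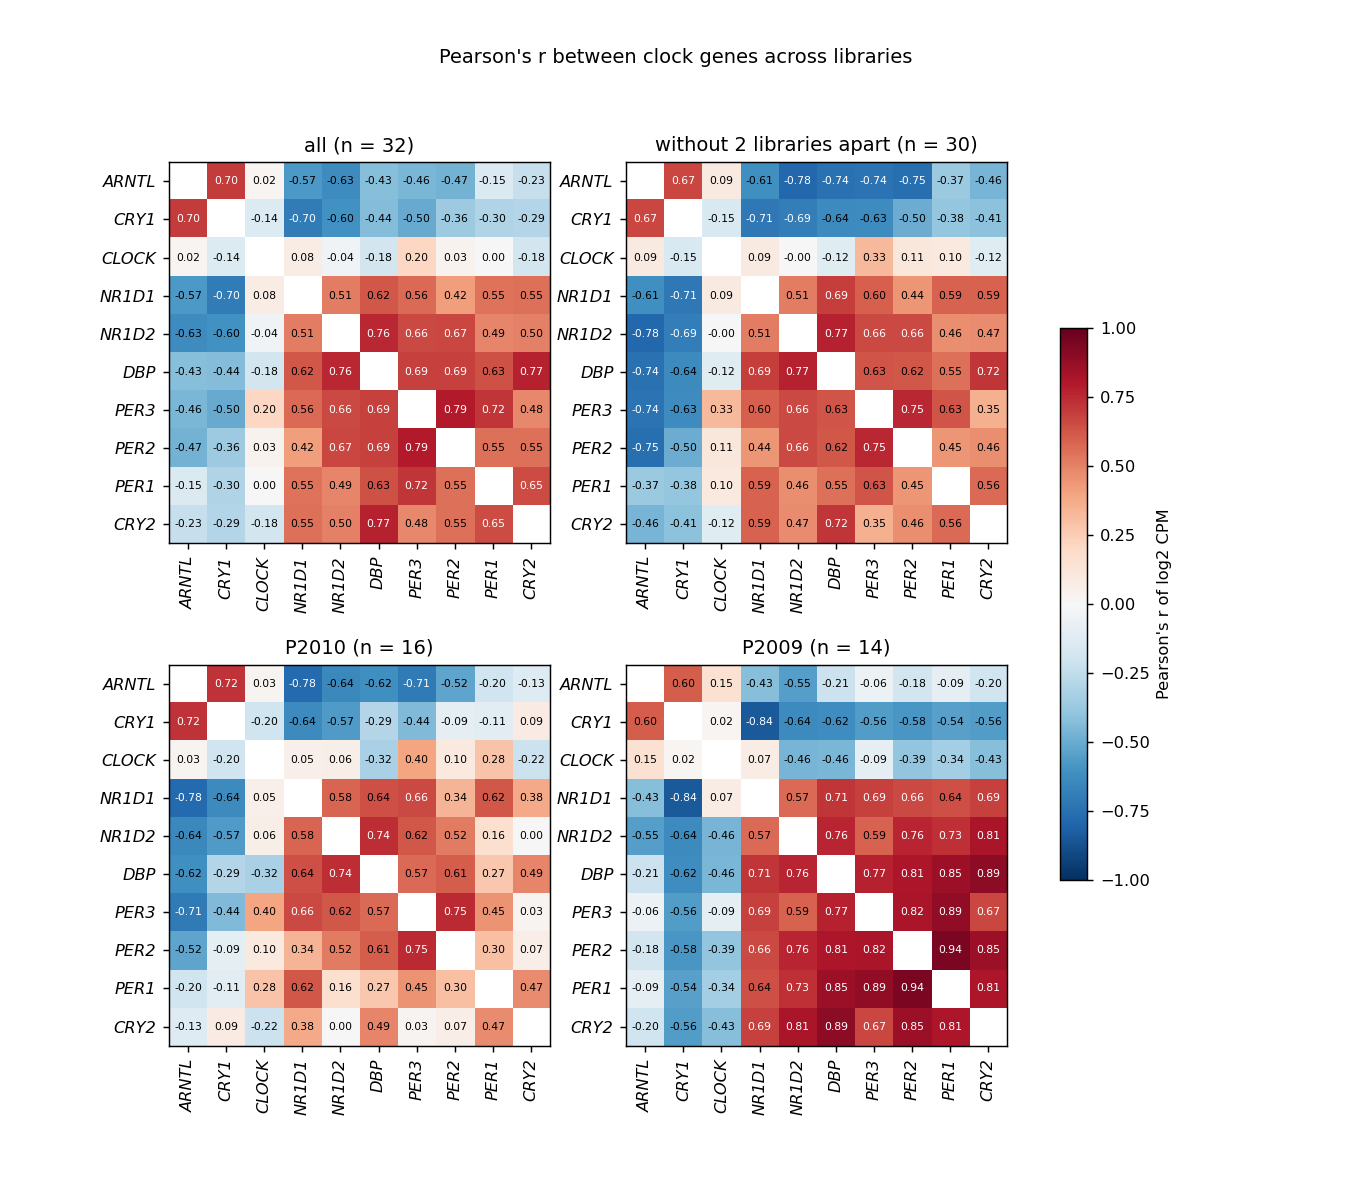
The 4 maps give Pearson's r of log2 CPM for each pair of clock genes over all libraries, without the 2 libraries that stood apart, within P2010 and within P2009, from blue (-1) to red (1). A red block of 7 genes (PER1, PER2, PER3, CRY2, NR1D1, NR1D2, DBP) recurs in each map with ARNTL and CRY1 mostly blue against it, and CLOCK is pale in the map of all libraries.

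Other genes of the clock pathway were compared with ARNTL from fixed lists, where 5.28% of the 19958 genes tested rose and 4.95% fell. Of 10 tested transcription factors outside the core set, 1 rose and 2 fell. RORA, a nuclear receptor that activates ARNTL, rose by 0.62 ± 0.14 (adjusted p = 0.00607). TEF, a PAR-domain relative of DBP, fell by 0.89 ± 0.19 (0.0033), and BHLHE41 (DEC2), an E-box repressor, fell by 1.00 ± 0.28 (0.0203, all by edgeR). The median slope of this list was -0.02, against 0.02 over all genes. Without the 2 libraries that stood apart 2 of the 10 rose and 2 fell, with a median of -0.47 against 0.009 over all genes. In that setting 10.5% of genes followed ARNTL by r. Slopes of these genes, and of CDKN1A below, without replicates 15 and 2 of P2010, the 2 libraries farthest from the median of ARNTL, are not given here.

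Of 14 kinases, ubiquitin ligases and partners of the clock proteins, 0 passed in either direction by edgeR, with 6 at an unadjusted p under 0.05 and CSNK1E lowest in p. Without the 2 libraries that stood apart CSNK1E, a kinase that marks PER proteins for breakdown, passed (0.44 ± 0.14, adjusted p = 0.0389). Of 11 common clock output genes 1 passed, the cell cycle inhibitor CDKN1A (1.26 ± 0.23, adjusted p = 0.00127 by edgeR). Of the 10 transcription factors outside the core set, 3 followed DBP and 1 opposed it, where 3.50% of all genes passed in either direction. DBP was followed by BHLHE41 (r = 0.74), TEF (0.68) and RORB (0.54), and opposed by NFIL3 (-0.66), the repressor that competes with DBP for D-box elements. Adjusted permutation p was 0.00868, 0.0095, 0.0447 and 0.0106 for these 4 genes. Without the 2 libraries farthest from the median of DBP, 20 of 19958 genes passed with DBP by r. By rho 0 passed in that setting (2841 at an unadjusted permutation p under 0.05), and values of these 4 genes there are not given here.

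Outside the clock pathway, the genes with the smallest p on ARNTL at a mean of at least 1 CPM were led by PIWIL1 (2.11 ± 0.29), SYNDIG1L (4.01 ± 0.55) and TRIB2 (1.21 ± 0.18) among those that rose. PLEKHG5 (-1.12 ± 0.16), TNFRSF25 (-1.24 ± 0.19) and GLYCTK (-1.43 ± 0.22) led those that fell, and adjusted p of these 6 was between 0.000184 and 0.000435 by edgeR. KCNH5, KCNH7, ULK2, ARPP21, SLC30A10, C12H9orf47 and SCN4B also rose, and ARHGAP22, GPD1, SPNS2, MAP7, MINK1, ADCY9 and CPEB1 also fell. Of the 10 that rose, SYNDIG1L (156.9 CPM against a mean of 20.9 CPM), KCNH5, KCNH7, ARPP21 and SCN4B were highest in replicate 2 of P2010, the library with the striatal and thalamic markers. The part of that library in their slopes was not tested gene by gene.

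Several lists of cell type markers moved with ARNTL too, where 5.28% of the 19958 genes tested rose and 4.95% fell. Of 13 immature neuron genes 8 rose and 1 fell (summed level 1081 to 3105 CPM over the libraries, smallest p for STMN1), and of 10 striatal and thalamic markers 5 rose and 0 fell (97.0 to 654 CPM). Of 10 excitatory neuron markers 1 rose and 3 fell (2031 to 4650 CPM, CAMK2A), and of 10 endothelial and mural markers 3 rose and 0 fell (434.8 to 821.9 CPM, PECAM1). Oligodendrocyte precursor markers gave 1 of 8 higher and microglia markers 1 of 9 higher, a single gene each. The inhibitory neuron, astrocyte, mature oligodendrocyte, fibroblast, choroid plexus and blood lists gave 0 in either direction. All 5 fibroblast markers had an unadjusted p under 0.05 by edgeR, with a median slope of 2.07, the largest of any list. So did 4 of 10 inhibitory neuron, 2 of 10 astrocyte and 2 of 10 mature oligodendrocyte markers, where 5365 of 19958 genes did. Without the 2 libraries that stood apart 10 immature neuron genes rose and 0 fell. Then 4 endothelial and mural, 3 oligodendrocyte precursor, 3 fibroblast and 1 inhibitory neuron markers rose. Microglia markers gave 3 higher and 1 lower, and excitatory neuron markers 0 higher and 3 lower. In the same fit 2 mature oligodendrocyte markers and 1 astrocyte marker fell, and of the striatal and thalamic markers 0 rose and 1, PPP1R1B, fell. By r, 10.5% of all genes followed ARNTL in either direction in that setting. Of the 12 genes induced by neuronal activity 1 rose with ARNTL over all libraries and 0 fell, whereas without those 2 libraries 0 rose and 2 fell, ARC (-1.69 ± 0.41, adjusted p = 0.0101) and EGR3 (-1.18 ± 0.38, 0.0407, both by edgeR). With scaling by library totals 10 immature neuron genes rose and 1 fell, and 7 striatal and thalamic markers rose. Markers of other types that rose were 5 endothelial and mural, 5 oligodendrocyte precursor, 5 fibroblast, 4 inhibitory neuron, 3 microglia and 1 astrocyte. Excitatory neuron markers gave 1 higher and 3 lower. Over all genes 3145 rose and 1087 fell with that scaling, against 1054 and 987 with TMM, so calls of a rise were more frequent throughout. In bulk tissue, fewer cells of a type and less RNA per cell cannot be told apart. With the striatal and thalamic score as a covariate, a fit added after the data had been seen, PER2 (-0.84 ± 0.18, adjusted p = 0.0113) and PER3 (-0.78 ± 0.24, 0.0478) passed by edgeR as well, and DBP fell by 1.00 ± 0.24 (0.0174).

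With the score of immature neuron genes as a covariate, the slopes on ARNTL were 0.59 ± 0.13 for CRY1 (adjusted p = 0.00597), -0.60 ± 0.16 for NR1D1 (0.0263) and -0.50 ± 0.15 for NR1D2 (0.0404). The slopes of PER2, PER3 and DBP were -0.22 ± 0.15, -0.26 ± 0.19 and -0.35 ± 0.24 (0.366, 0.422 and 0.368, all by edgeR). The 3 genes called without the covariate were thus also called with it.

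Since the study concerns development and the labels give no exact ages, each gene was also tested for a slope on the immature neuron score, the mean z-score of 13 genes of young neurons such as DCX and SOX11. The score was highest, at 1.48, in replicate 1 of P2011 and lowest, at -1.43, in replicate 1 of P2009. In replicate 1 of P2011 PER2 was at 38.0, PER3 at 61.9, NR1D2 at 115.6 and DBP at 19.2 CPM. In replicate 1 of P2009 PER2 was at 68.3, PER3 at 171.6, NR1D2 at 172.8 and DBP at 41.2 CPM, so all 4 were lower in the library with the higher score. Replicate 1 of P2009 is, however, 1 of the 2 libraries that stood apart, and without these 2 the highest value of PER3 was 131.1 CPM.

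PER2 fell by 0.22 ± 0.03 on the log2 scale per SD of the score (adjusted p = 2.03e-06), PER3 fell by 0.22 ± 0.04 (7.57e-05), DBP fell by 0.20 ± 0.05 (0.00304) and NR1D2 fell by 0.14 ± 0.04 (0.0018, all by edgeR). CRY2 fell by 0.05 ± 0.02 (0.0498) and ARNTL rose by 0.09 ± 0.04 (0.0465), both just under the threshold. In all 1 clock gene rose and 5 fell of 10, where 16.1% of 19946 genes rose and 17.1% fell. Without the 2 libraries that stood apart 1 rose and 4 fell, and the share of all genes in that setting is not given here. PER1 (-0.09 ± 0.05, 0.123), CRY1 (0.05 ± 0.03, 0.235), NR1D1 (-0.05 ± 0.04, 0.333) and CLOCK (0.01 ± 0.02, 0.773) did not pass.

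The calls of PER2, PER3, DBP and NR1D2 were made in all 32 fits that left out 1 library and with the prefix as a factor, where the slopes were -0.28 ± 0.05, -0.31 ± 0.06, -0.36 ± 0.08 and -0.22 ± 0.06. Within P2010 they were -0.19 ± 0.05 for PER2 (adjusted p = 0.0212), -0.17 ± 0.05 for PER3 (0.0610), -0.26 ± 0.03 for DBP (0.000287) and -0.18 ± 0.04 for NR1D2 (0.0238). Within P2009 they were -0.18 ± 0.04, -0.22 ± 0.06, -0.22 ± 0.09 and -0.11 ± 0.06 (0.0578, 0.0902, 0.202 and 0.307, all by edgeR). ARNTL passed in 19 and CRY2 in 3 of the 32 omissions, and without replicate 15 of P2010 ARNTL was at 0.06 ± 0.03 (0.165). CRY2 without replicate 1 of P2009 was at -0.03 ± 0.02 (0.160).

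**Figure D5:**
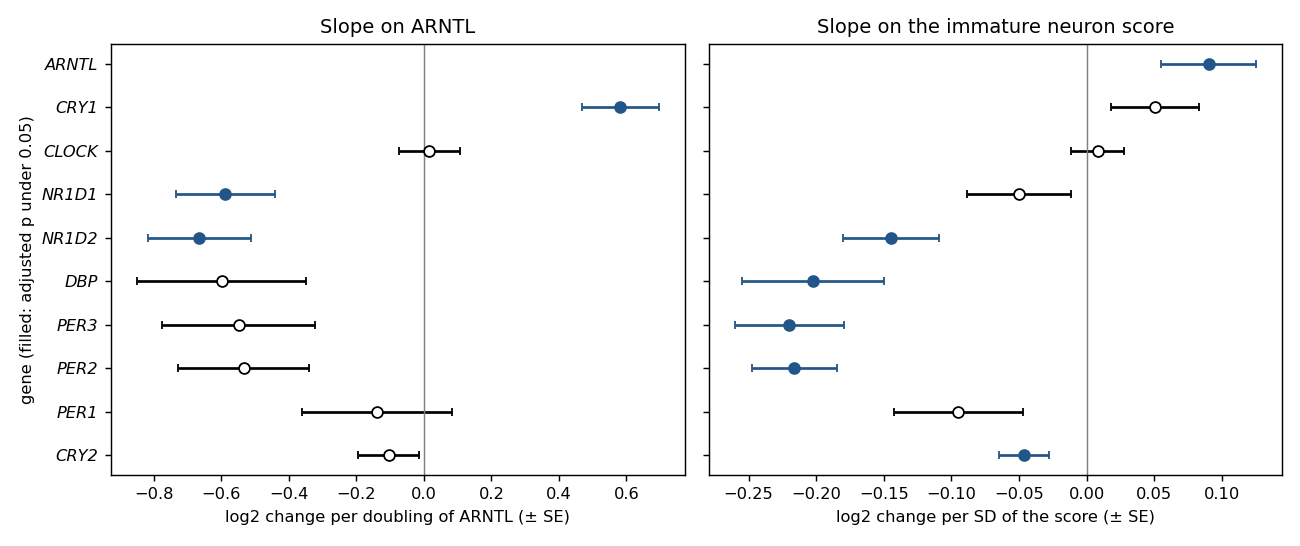
Points give the slope of each clock gene and bars its SE, on ARNTL (left, log2 change per doubling of ARNTL) and on the immature neuron score (right, log2 change per SD of the score), over 32 libraries, with filled points for an adjusted p under 0.05 by edgeR. CRY1, NR1D1 and NR1D2 pass on ARNTL, and PER2, PER3, DBP, NR1D2, ARNTL and CRY2 pass on the score, ARNTL and CRY2 just under the threshold. The difference between the 2 kinds of slope was not tested.

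Other genes moved with the score beside the clock genes, where 16.1% of 19946 genes rose and 17.1% fell. Of 10 further clock transcription factors 0 rose and 6 fell, among them BHLHE41 (-0.38 ± 0.04), TEF (-0.27 ± 0.03), HLF (-0.22 ± 0.03), RORB (-0.30 ± 0.06) and NPAS2 (-0.19 ± 0.04), with adjusted p of these 5 from 2.09e-08 for BHLHE41 to 0.000573 for NPAS2 by edgeR. Their median slope was -0.21, against -0.002 over all genes. Of 14 kinases, ligases and partners 4 rose and 3 fell, among them USP2 (-0.21 ± 0.04) and CSNK1D (-0.13 ± 0.03) down and CSNK1E (0.11 ± 0.02) up. Without the 2 libraries that stood apart 4 of this list rose and 5 fell. Of 11 output genes 4 rose and 1 fell, led by WEE1 (0.33 ± 0.04).

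Genes induced by neuronal activity fell in 9 of 12 cases and rose in 0, with EGR3 lowest in p (-0.36 ± 0.06, adjusted p = 5.59e-06 by edgeR) and a summed level of 108.5 to 318.6 CPM. PER2 followed 9 of these 12 genes, where it followed 31.7% of all genes, with r of 0.86 for ARC, 0.84 for EGR1 and 0.75 for EGR3, each with an adjusted permutation p of 0.000265, and 0.53 for FOS (0.0117). PER1 followed 0 of the 12 (1 at an unadjusted permutation p under 0.05) and DBP 0 of the 12 (7 unadjusted). Oligodendrocyte precursor markers rose in 5 of 8 cases (474.6 to 1064 CPM), endothelial and mural markers in 5 of 10 and fibroblast markers in 4 of 5. Mature oligodendrocyte (2228 to 9856 CPM) and astrocyte (5354 to 9864 CPM) markers each fell in 3 of 10, where 17.1% of all genes fell. Microglia markers gave 3 of 9 higher and 3 lower, and inhibitory neuron markers 3 of 10 higher and 1 lower. Excitatory neuron markers and striatal and thalamic markers each gave 1 of 10 higher and 3 lower. The part of these cell types, and of the activity-induced genes, in the slopes of the clock genes was not tested.

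Levels were then compared between P2010 and P2009. All 14 libraries of P2009 had title numbers under 20000, against 7 of 16 in P2010, so prefix and title number were confounded in part. PER2 ran from 28.9 through a median of 42.7 to 60.8 CPM in P2010, against 37.1 through 51.5 to 68.3 CPM in P2009, and averaged 43.4 ± 7.66 CPM (SD, n = 16) and 51.0 ± 8.09 CPM (SD, n = 14). In 14 of 16 libraries of P2010 it lay below the median of P2009, though the ranges overlapped. The difference was -0.23 ± 0.08 on the log2 scale and missed the threshold (adjusted p = 0.0566 by edgeR).

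It passed under DESeq2 (-0.23, adjusted p = 0.0443), with the share of reads in no feature as a covariate (-0.22, 0.0473), and in 5 of the 32 omissions of 1 library (replicates 6, 8 and 12 of P2009 and 3 and 16 of P2010, adjusted p from 0.0182 to 0.0469). In all, 0 of 10 clock genes were called in either direction by edgeR, PER2 alone having an unadjusted p under 0.05, where 7.94% of 19959 genes were higher in P2010 and 6.65% lower. PER3 averaged 94.8 ± 16.4 CPM in P2010 and 107 ± 25.6 CPM in P2009 (-0.17 ± 0.10, adjusted p = 0.254 by edgeR). ARNTL averaged 39.5 ± 7.23 CPM in P2010 and 36.5 ± 4.90 CPM in P2009 (0.11 ± 0.08, 0.359).

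For the other 7 genes adjusted p was between 0.392 and 0.963, and their ranges overlapped. Among the further clock transcription factors 0 were higher and 2 lower in P2010, TEF (-0.33 ± 0.08, adjusted p = 0.00951) and HLF (-0.27 ± 0.08, 0.0243). WEE1 (0.51 ± 0.10, 0.000942), CDKN1A (0.38 ± 0.13, 0.0493) and CSNK1E (0.18 ± 0.06, 0.0249) were higher and BTRC (-0.21 ± 0.05, 0.00512, all by edgeR) was lower. Of 12 activity-induced genes 0 were higher and 3 lower in P2010. Without the 2 libraries that stood apart 1 activity-induced gene was higher and 4 lower. Further clock transcription factors then gave 0 higher and 3 lower. Kinases, ligases and partners gave 1 higher and 3 lower, and output genes 3 higher and 0 lower. The share of all genes in that setting is not given here. Of 13 immature neuron genes 11 were higher in P2010 and 0 lower, with summed levels of 1184 to 2996 CPM in P2010 and 1081 to 1813 CPM in P2009. With the score of these genes as a covariate 0 of 19959 genes were called by edgeR, with 2223 at an unadjusted p under 0.05, and PER2 was at 0.15 ± 0.10 (adjusted p = 0.548). The score itself differed between the prefixes, at -0.472 to 1.35 in P2010 and -1.43 to 0.117 in P2009. Prefix and score therefore cannot be told apart well in that fit.

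The 2 libraries of P2011 lay low in several of the genes. DBP was at 19.2 and 13.7 CPM, PER2 at 38.0 and 32.7 CPM, PER3 at 61.9 and 77.1 CPM and NR1D2 at 115.6 and 114.0 CPM, while ARNTL was at 40.9 and 42.8 CPM and CRY1 at 19.6 and 20.3 CPM. No test was made on this pair of libraries alone, and replicate 1 had the highest immature neuron score of all.

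Within P2010, libraries whose title number was 20000 or more were compared with those under 20000. Of the 10 clock genes 0 were called and 1, CLOCK, had an unadjusted p under 0.05, where 0% of 19268 genes were called by edgeR, with 2793 at an unadjusted p under 0.05, 194 called by DESeq2 and 0 by limma. CLOCK came closest, at 154.1 ± 8.20 CPM in the 9 libraries with high numbers and 167.5 ± 14.5 CPM in the 7 with low numbers (-0.13 ± 0.06, adjusted p = 0.320 by edgeR). NR1D2 averaged 149.8 ± 29.5 CPM with high numbers and 136.5 ± 7.36 CPM with low numbers (0.13 ± 0.11, adjusted p = 0.612 by edgeR).

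Reads of neighbouring genes could enter some of these counts, since no source used here states whether counting used the strand. In the reference gene table BTBD10 overlaps ARNTL, THRA lies next to NR1D1, and SPHK2 and CA11 flank DBP. The slope on ARNTL was -0.11 ± 0.15 for BTBD10 (adjusted p = 0.684) and -0.26 ± 0.13 for THRA (0.192). SPHK2 fell with ARNTL by 0.60 ± 0.18 (0.0278) and with the immature neuron score by 0.18 ± 0.03 (5.99e-05), and CA11 fell with the score by 0.25 ± 0.06 (0.000629, all by edgeR). At a wider distance, MAPK8IP1 lies 2418 bases from CRY2, VAMP3 2759 bases from PER3 and VAMP2 3704 bases from PER1. MAPK8IP1 fell with ARNTL by 0.53 ± 0.12 (adjusted p = 0.00651) and with the score by 0.09 ± 0.03 (0.0161). VAMP3 fell with the score by 0.15 ± 0.04 (0.00147) and VAMP2 by 0.13 ± 0.04 (0.0155, all by edgeR). HES6, 3457 bases from PER2, rose with the score by 0.42 ± 0.04 (7.01e-09 by edgeR), opposite to PER2. What these neighbours contribute to the counts of the clock genes was not tested.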

How the data were processed

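Total RNA was depleted of ribosomal RNA and made into stranded libraries, per the labels' protocols. The authors deposited raw counts of reads per gene, without normalization. STAR and HTSeq are named in the submitters' processing notes; versions, build, annotation and strand setting are not stated in any source used here. The 5 rows that count reads outside genes (51.3% to 67.1% of reads in no feature per library) were left out of library sizes. The clock genes, lists and tests were chosen with earlier results of these data known.

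Counts were TMM-scaled and tested with edgeR 4.0.16 (R 4.3.3; filterByExpr: minimum count 10, total 15, proportion 0.7), adjusted over all genes tested by Benjamini-Hochberg. Log2 CPM used a prior count of 2. Correlations were tested by permutation, where 1e-05 is the smallest possible p. Scripts were tested on simulated data. Alternatives used DESeq2 1.42.0 and limma 3.58.1. All 10 clock genes, called genes of the clock lists (up to 6 each), the gene of smallest p in a marker list, and the 10 genes of smallest p in each direction on ARNTL are named; other names (companions of DBP, PER2 and PER1, genes next to a clock gene) were picked after their values were seen. A few genes that this rule would name are not reported here. No library was a duplicate of another: chi-square divided by its degrees of freedom was 4.34 or more in all 496 pairs. No clock gene reached the floor of 3 counts.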

Additional observations from a re-analysis of the deposited data

How the results depend on the processing

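Of 485 values of clock genes recomputed under alternatives, 36 lost the call, 19 gained it and 0 called values changed sign, while 25 uncalled ones did. Genes following ARNTL numbered 2041, and 944 to 2946 with 1 library left out: 944 without replicate 15 of P2010 and 1227 without replicate 4 of P2009. They numbered 4232 with library totals only (3145 higher and 1087 lower against 1054 and 987, with the median of all genes at 0.13 against 0.02), 1307 without a filter, 846 with the prefix as a factor, 757 with the library total as a covariate, 270 without the 2 libraries farthest in ARNTL, 76 within P2010, 0 within P2009 (2646 at an unadjusted p under 0.05 by edgeR), 1117 with the immature neuron score and 1084 with the striatal and thalamic score as covariates, and 0 with NR1D1 as the regressor (2402 unadjusted by edgeR). By permutation 1830 genes followed ARNTL by r, 563 by rho, 8 within P2010, 0 within P2009 (2781 unadjusted), 130 without the 2 farthest libraries and 3920 with library totals only. Genes differing between P2010 and P2009 numbered 2912, 1150 with title numbers under 20000 only, 0 with the score of immature neuron genes as a covariate (2223 unadjusted by edgeR) and 2236 to 3721 with 1 library left out. With library totals 2285 were higher and 935 lower, against 1584 and 1328. Between the number sets of P2010, DESeq2 called 194 genes against 0 by edgeR, and leaving out 1 library gave 0 to 16 (16 without replicate 7, 9 without replicate 16, 1 without replicate 15). Genes following the immature neuron score numbered 6624, 2454 with the prefix as a factor, 945 within P2010, 194 within P2009 and 5851 to 7062 with 1 library left out; with library totals 4072 were higher and 2712 lower, against 3205 and 3419. Fits within a prefix hold fewer samples; for the other settings the cause was not tested. The fits without the 2 libraries that stood apart, the fit with the striatal and thalamic score and the omissions for the immature neuron score were chosen after seeing the data. No paired analysis was possible because replicate numbers follow accession order only.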
